A study of Arabidopsis thaliana with 6 samples.

Results

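The precursor of miR167b is 1 of 19 RNAs whose structure was probed with dimethyl sulfate (DMS) in leaves of Arabidopsis thaliana. Its 291 probed positions were taken as all rows that the base-call files list under the name miR167b, of 5550 positions in all. The transcribed strand has A or C at 146 of them. The first and last 26 nt were taken as primer ends and left out of the rates, which left 239 positions from 27 to 265, with 116 A or C and 123 G or T. Position 1 is the 5' end of the amplicon. The gene is MIR167b, locus AT3G63375, in the RefSeq gene table (assembly TAIR10.1). The table lists 4 MIR167 genes, of which this is the 1 that was probed.

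Plants were 3 weeks old and were either wild type, written Col (Col-0 for the mock), or the chr2 mutant, whose allele the labels do not name. CHR2 is BRAHMA, the subunit of SWI/SNF complexes that burns ATP to move nucleosomes, and the title of the series ties it to the folding of primary miRNA transcripts through SERRATE. Each genotype had 2 libraries from plants treated with 1% DMS for 30 min and 1 mock library from plants given water. Nuclear RNA was used in all 6 libraries, and the labels do not say whether replicates are separate plants, so that p-values cover the spread between these libraries alone. CHR2 itself was not probed, so the genotype could not be checked against these counts.

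MicroRNAs of the miR167 family pair with the mRNAs of ARF6 and ARF8, transcription factors that turn auxin into a change of gene expression, and the family is known for its part in the growth of flowers and roots. A plant miRNA is cut from a folded primary transcript (pri-miRNA) in the nucleus. Dicer-like 1, helped by SERRATE and HYPONASTIC LEAVES 1, commonly cuts first across the stem below the duplex of miRNA and miRNA*, and then again on its loop side, so the lower stem, the duplex and the loop are the parts a structural probe is read against. DMS methylates the pairing face of unpaired A and C. The enzyme that copies the RNA into DNA passes the methyl group but misreads the base, so the mismatch rate at a position, the percentage of base calls other than the reference base, rises where a base is open. G and T are not read out this way and served as the control.

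The hairpin is shown because every region below is defined on it. The capitals mark the miRNA, on the 5' arm at positions 130 to 150, and the strand opposite it at positions 198 to 220, called miRNA* here. The second line gives the pairing predicted for the whole amplicon (minimum free energy -74.3 kcal/mol), a bracket for a paired and a dot for an unpaired base. In the third line capitals mark the seed, bases 2 to 8, by which the miRNA was placed.
hairpin, positions 121 to 229: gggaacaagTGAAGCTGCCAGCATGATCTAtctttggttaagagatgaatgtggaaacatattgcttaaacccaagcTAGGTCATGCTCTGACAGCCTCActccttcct
predicted pairing: (((((..(((((.(((((.(((((((((((.(((.((((..(((...((((((....)))))).))).)))).))).)))))))))))..).)))).)))))..)))))
miRNA: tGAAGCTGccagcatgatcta

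In this fold 19 of the 21 miRNA bases were paired, and the lower stem was 9 nt on each arm, at positions 121 to 129 and 221 to 229. A loop side of 47 nt lay between the duplex strands. The 42 pairs of the hairpin were all present again in the fold at 22 °C and in the fold of the amplicon without its primer ends, and 31 of them in the centroid of the partition function. The 50 pairs outside the hairpin were less stable to the setting, with 44, 0 and 42 of them found again in those 3 folds. The flanks around the hairpin are shown because they held most of the positions at 1% or more, and capitals mark A or C positions with a rate of 1% or more in at least 3 of the 4 DMS libraries.
5' flank, positions 27 to 120: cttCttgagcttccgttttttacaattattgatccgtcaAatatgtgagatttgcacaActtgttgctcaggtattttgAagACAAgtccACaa
3' arm of the lower stem, positions 221 to 229: ctcCttcct
3' flank, positions 230 to 265: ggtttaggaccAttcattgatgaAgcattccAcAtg

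The libraries held between 342449353 and 453222421 base calls over all amplicons, and the median coverage of a miR167b position was between 52437 and 67360 in 5 libraries and 197753 in Col DMS replicate 2. The lowest coverage of any miR167b position was 7550. Products were amplified with gene-specific primers and mixed in equal amounts, so coverage does not measure abundance, and PCR reads without molecular identifiers make counting intervals a lower limit of the error. At this depth the 95% Wilson interval of a rate of 11.2%, C224 in chr2 DMS replicate 2, was 10.9% to 11.5%, and that of 0.0187%, A50 in chr2 DMS replicate 1, was 0.0117% to 0.0300%.

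Mean A/C rates across miR167b were 0.0520% in the mock of Col and 0.0574% in that of chr2, and with DMS 1.61% and 2.17% in Col and 1.76% and 1.77% in chr2. All 4 DMS libraries lay above both mocks (exact two-sided permutation p = 0.133, the smallest that 4 against 2 libraries allow). The chr2 mean of 1.77% ± 0.00550 (SD, n = 2) lay inside the range of the Col libraries, whose mean was 1.89% ± 0.396 (n = 2). The difference of -0.126 percentage points had an exact two-sided permutation p of 1.00, and the smallest p that 2 against 2 libraries allow is 0.333. Without Col replicate 2 the difference was 0.154. Among the 16 pri-miRNAs the mean rate of 1.83% over the 4 DMS libraries ranked 8, between 0.510% and 2.55% in the others with a median of 1.80%.

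G and T positions, the control, were at 0.0561% and 0.0538% in the mocks, and with DMS at 0.171% and 0.151% in Col and 1.03% and 0.282% in chr2. All DMS libraries were above the mocks here too, and both chr2 libraries were above both of Col (exact two-sided permutation p = 0.333). In chr2 DMS replicate 1 the G/T mean came from 9 positions between 12.1% and 14.2%, which were spread over the flanks, the lower stem, the miRNA* and the loop side. T46 in the 5' flank was at 14.2% in that library and at 0.0160%, 0.0185% and 0.0275% in the other DMS libraries. T242 in the 3' flank was likewise at 14.2% there and at no more than 0.0553% in the others. G/T positions at 1% or more in at least 1 DMS library numbered 23 of 123 (18.7%), against 7.26% over all amplicons. T229, the last base of the lower stem, was the single G/T position high in more than 1 library, at 3.92% in Col DMS replicate 1 and 13.9% in chr2 DMS replicate 1. What moved G and T rates with DMS was not tested.

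Within miR167b the A/C rates differed between the parts of the precursor, as the profile of rates along the amplicon shows. Their means were highest in the flanks, lower in the lower stem and on the loop side, and lowest in the duplex. G/T rates, the control, also differed between parts with DMS. Their means over the DMS and the mock libraries were 0.350% and 0.0459% in the 5' flank, 0.821% and 0.0736% in the lower stem, and 0.0726% and 0.0647% in the miRNA. They were 0.355% and 0.0523% in the miRNA*, 0.330% and 0.0469% in the paired upper stem, 0.853% and 0.121% at the unpaired loop side, and 0.533% and 0.0545% in the 3' flank. In each part other than the miRNA the highest G/T mean was that of chr2 DMS replicate 1.

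**Figure D1:**
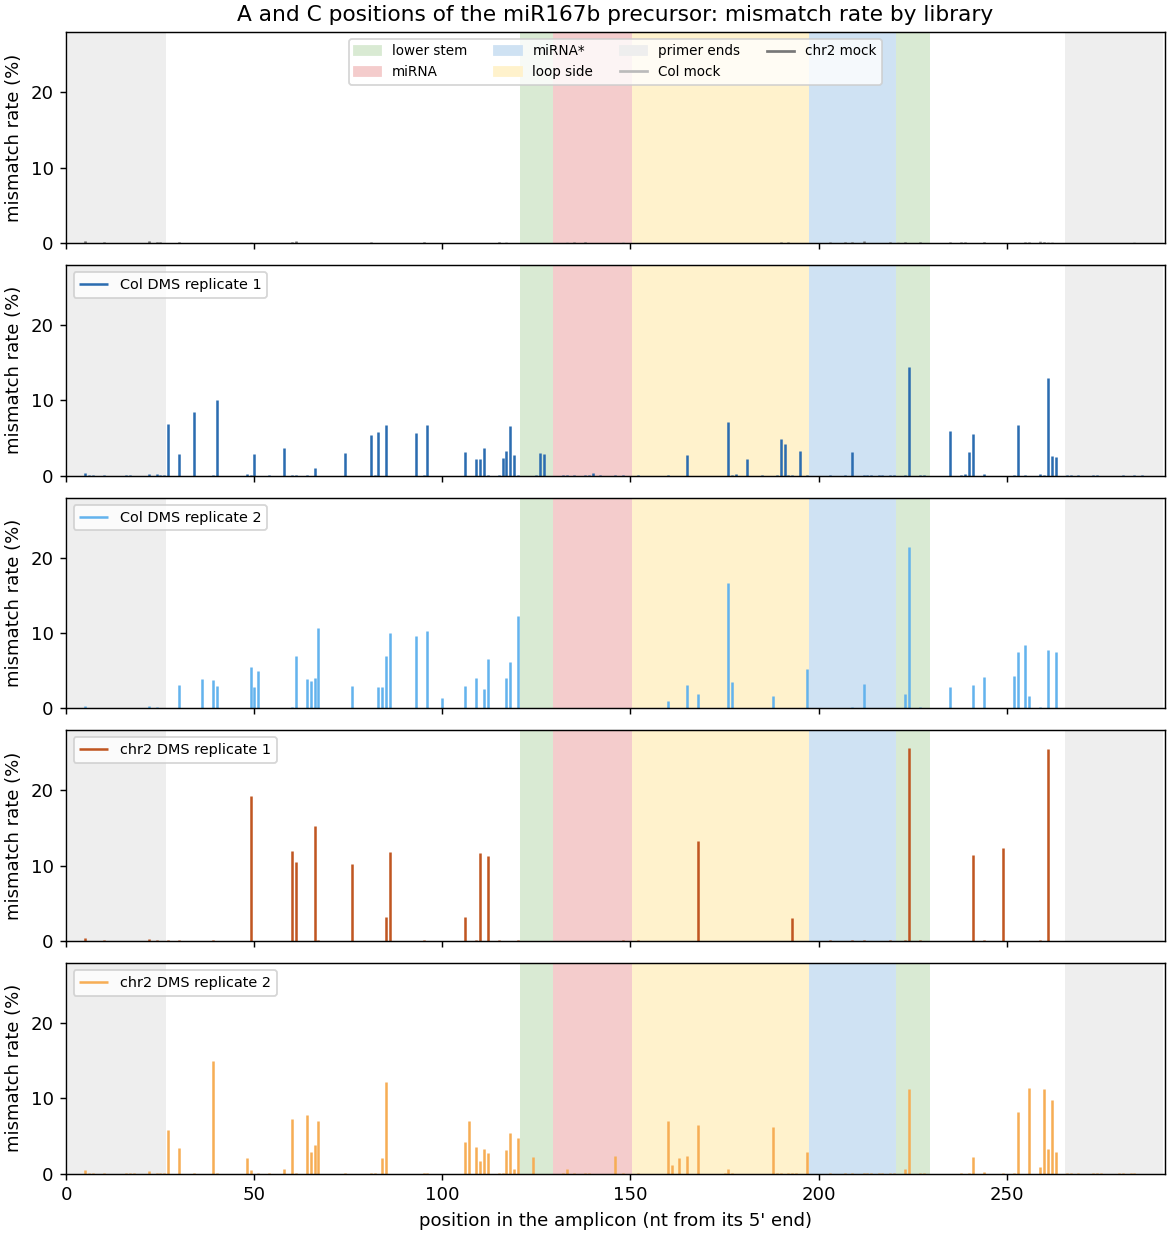
Mismatch rate in percent (vertical axis) at each A or C position of the miR167b amplicon (horizontal axis, nt from its 5' end), with both mocks in the top panel and 1 panel for each DMS library below. Shading marks the parts of the precursor, and the bars of the duplex stay near 0 except at 3 positions that were each high in 1 library, while C224 in the lower stem is between 11.2% and 25.6% in all 4.

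The 60 A/C positions of the flanks had mean rates of 2.28% and 3.18% in Col and 2.67% and 2.64% in chr2 with DMS, a mean of 2.69% ± 0.367 (SD, n = 4). The 23 A/C positions of the duplex had 0.196%, 0.188%, 0.0532% and 0.175% in the same order, a mean of 0.153% ± 0.0671. Flanks were above the duplex in every DMS library, by 2.54 percentage points ± 0.373 or 17.6-fold. Positions predicted as paired gave the same order, although the flank pairs varied with the fold setting as given above. Their rates were 2.61% ± 0.345 at 31 A/C positions of the flanks and 0.0816% ± 0.0621 at 18 of the duplex, 32.0-fold apart. Those 18 were at 0.0623%, 0.0442%, 0.0459% and 0.174% with DMS, near the mocks at 0.0507% and 0.0567%. The whole duplex was at 0.0604% and 0.0646% in the mocks. No mock rate was subtracted, so fold values against the duplex, here and below, depend on this background. Both differences between flanks and duplex had an exact two-sided sign-flip p of 0.125 over the 4 libraries, the smallest that 4 libraries allow. Adjusted over the 7 comparisons of parts that were made, it was 0.146.

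The lower stem, where the first cut is commonly made, had a mean rate of 2.06% and 2.36% in the Col and 2.60% and 1.42% in the chr2 DMS libraries, against 0.0690% and 0.0598% in the mocks. It was 13.8-fold above the duplex, higher in 4 of 4 libraries (exact sign-flip p = 0.125, adjusted 0.146). Most of that rate came from 1 base. C224 is predicted to be unpaired in the interruption of the stem that faces C126 and A127, and it was at 14.4%, 21.4%, 25.6% and 11.2% in Col DMS replicates 1 and 2 and chr2 DMS replicates 1 and 2, against 0.0711% and 0.0698% in the mocks. The libraries of the genotypes overlapped fully, with means of 17.9% ± 4.93 in Col and 18.4% ± 10.2 in chr2 (n = 2 each). Its neighbour C223 was at 1.92% in Col DMS replicate 2, 0.578% in chr2 DMS replicate 2 and no more than 0.134% in the first replicates, so the adjacent base of the same interruption was at or above 1% in Col DMS replicate 2 alone. On the facing arm C126 and A127 were at 2.98% and 2.86% in Col DMS replicate 1 and under 0.1% in the other DMS libraries. The 6 paired A/C positions of the lower stem had a mean of 0.135% ± 0.175 (n = 4), and A124 in chr2 DMS replicate 2, at 2.16%, was the 1 value among them at 1% or more.

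The miRNA strand stayed near mock. Its 11 A/C positions had mean rates of 0.0686% and 0.0405% in Col, 0.0413% and 0.299% in chr2, and 0.0481% and 0.0518% in the mocks. DMS and mock libraries overlapped (exact two-sided permutation p = 0.800), and so did the genotypes (p = 0.667). The highest value came from A146, at 2.38% in chr2 DMS replicate 2 and between 0.0335% and 0.0347% in the other DMS libraries. C139, which faces C209 and T210 of the miRNA* in an internal loop, was between 0.0473% and 0.0620% with DMS and at 0.0575% and 0.0474% in the mocks. A133, the other open base, was between 0.0491% and 0.0520% in 3 DMS libraries and at 0.562% in chr2 DMS replicate 2.

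The miRNA* strand had mean rates of 0.313% and 0.324% in Col and 0.0641% and 0.0606% in chr2, with 0.0717% and 0.0764% in the mocks. Both Col libraries were above both chr2 libraries (exact two-sided permutation p = 0.333, the smallest possible), and each Col mean rested on a different base. C209 was at 3.15% in Col DMS replicate 1 and between 0.103% and 0.158% in the other DMS libraries, and A212 was at 3.26% in Col DMS replicate 2 and between 0.0790% and 0.0972% in the others. With the median over positions in place of the mean, the chr2 minus Col difference changed from -0.256 to 0.00581 percentage points. C207, paired with the miRNA in the fold, was at 0.0367%, 0.0322%, 0.0193% and 0.0364% with DMS, below its mock values of 0.108% and 0.105%.

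The loop side lay between the duplex and the flanks. Its 23 A/C positions had mean rates of 1.09% and 1.47% in Col and 0.743% and 1.27% in chr2, which was 7.47-fold above the duplex and 2.36-fold below the flanks, each in 4 of 4 libraries (exact sign-flip p = 0.125, adjusted 0.146). Unpaired positions of the loop and of the bulges above the duplex were at 1.12%, 3.49%, 0.371% and 2.26%. The 14 paired positions around them were at 1.07%, 0.168%, 0.983% and 0.635%, so the order of paired and unpaired was turned in chr2 DMS replicate 1. A176, in the terminal loop, was at 7.14% and 16.7% in Col, 0.0352% and 0.579% in chr2, and 0.0408% and 0.0299% in the mocks. A175 beside it had no more than 0.0381% in any DMS library. A165 was at 2.70%, 3.11% and 2.33% in 3 DMS libraries and at 0.0154% in chr2 DMS replicate 1. A168, paired in the fold, had the highest mean of the loop side over the chr2 libraries, at 13.3% and 6.43%, with 0.0277% and 1.91% in Col.

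The flanks had like means. The 5' flank had mean rates of 2.25%, 3.32%, 2.57% and 2.50% in Col DMS replicates 1 and 2 and chr2 DMS replicates 1 and 2, and the 3' flank had 2.37%, 2.81%, 2.94% and 2.97%. The 5' flank was higher in 1 of 4 libraries (exact sign-flip p = 0.750). In the 5' flank 38 of 43 A/C positions, and in the 3' flank 13 of 17, were at 1% or more in at least 1 DMS library. The count was 14 of 23 on the loop side, 5 of 10 in the lower stem and 3 of 23 in the duplex. The run of bases just before the hairpin held 6 of the capitals printed above. C118 there was at 6.56%, 6.21% and 5.41% in 3 DMS libraries and at 0.0460% in chr2 DMS replicate 1. A109, A111 and A117 had the same shape, each between 2.25% and 4.06% in 3 libraries and under 0.1% in chr2 DMS replicate 1. A120, which adjoins the stem, was at 12.3% and 4.72% in the second replicates of Col and chr2 and at 0.0436% and 0.167% in the first.

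**Figure D2:**
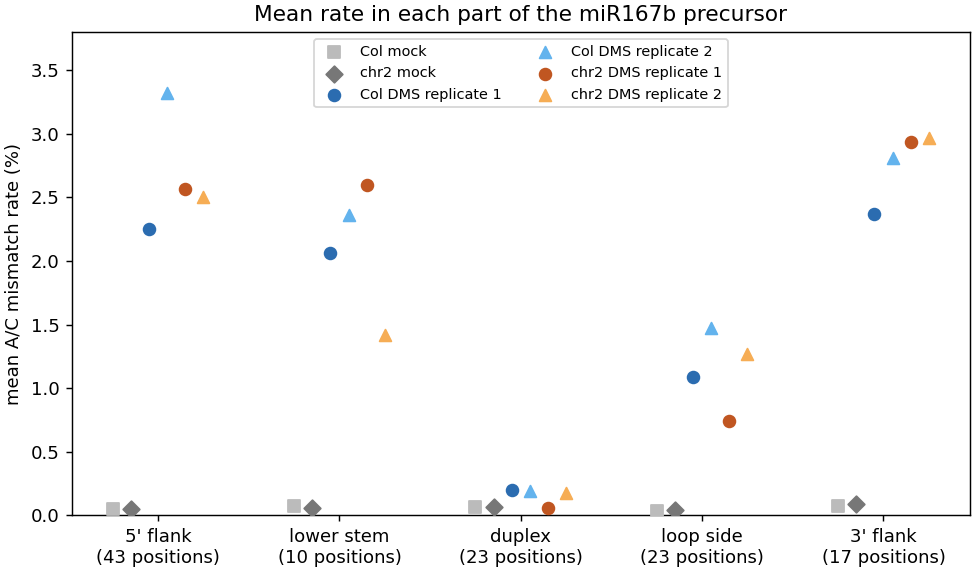
Mean mismatch rate in percent over the A and C positions of each part of the precursor (vertical axis), with 1 point for each of the 6 libraries and the number of positions under each part. The duplex points lie at 0.196% or less in every library, and those of both flanks at 2.25% or more in every DMS library.

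Predicted pairing separated open from closed bases weakly over the whole amplicon. The 47 unpaired A/C positions had mean rates of 2.21% and 3.35% in Col and 2.37% and 2.22% in chr2. The 69 paired positions had 1.21% and 1.37% in Col and 1.35% and 1.47% in chr2. Unpaired positions were thus higher in every DMS library, and the area under the curve (AUC), the chance that an unpaired position has the higher rate of a pair, was 0.586, 0.683, 0.535 and 0.613, against 0.563 and 0.521 in the mocks. Col had an AUC of 0.635 ± 0.0687 and chr2 of 0.574 ± 0.0549 (n = 2 each, exact two-sided permutation p = 0.667). The order differed between parts. In the 5' flank paired positions averaged 2.91% ± 0.348 and unpaired ones 2.35% ± 0.840 (SD, n = 4 DMS libraries). Unpaired positions were higher there in Col DMS replicate 2 alone, at 3.57% against 3.12%. Unpaired means were above paired ones in the 3' flank (3.59% and 1.60%), lower stem (5.08% and 0.135%), duplex (0.410% and 0.0816%) and loop side (1.81% and 0.714%).

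Positions that were high in 1 library were often not high in another. Of the 116 A/C positions, 43 were below 1% in all 4 DMS libraries, 32 were at 1% or more in 1, 24 in 2, 11 in 3 and 6 in all 4. The 73 positions at 1% or more in any library were 62.9% of the 116, against 57.1% over all amplicons, and the 6 in all 4 were 5.17%, against 20.4% over all amplicons. Much of that 20.4% came from the mRNAs, where 277 of 387 positions were high in all 4, against 158 of 1663 in the other pri-miRNAs. C39 was at 3.76% in Col DMS replicate 2, was the highest position of chr2 DMS replicate 2, and was under 0.1% in the first replicates. C49 was at 5.46% in Col DMS replicate 2, 19.2% in chr2 DMS replicate 1, 0.0827% in Col DMS replicate 1 and 0.513% in chr2 DMS replicate 2. A253 was at 6.69%, 7.56% and 8.25% in 3 libraries and 0.0231% in chr2 DMS replicate 1, and A112 was low in Col DMS replicate 1 instead, at 0.0356% against 6.58%, 11.3% and 2.75%. High values thus came from different libraries at different positions. Of the positions high in any library 8.22% were so in all 4, which compares with 19.6% in the other 15 pri-miRNAs and 77.8% in the 3 mRNAs. Pooled over the precursors of miR160a, miR160c and miR393b, which also act on auxin signalling, the share was 10.5%. It differed between them, at 23.5% in miR160a (16 of 68 positions) and 0% in miR160c and miR393b. Leaving out chr2 DMS replicate 1 raised the positions high in all remaining libraries from 6 to 14.

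**Figure D3:**
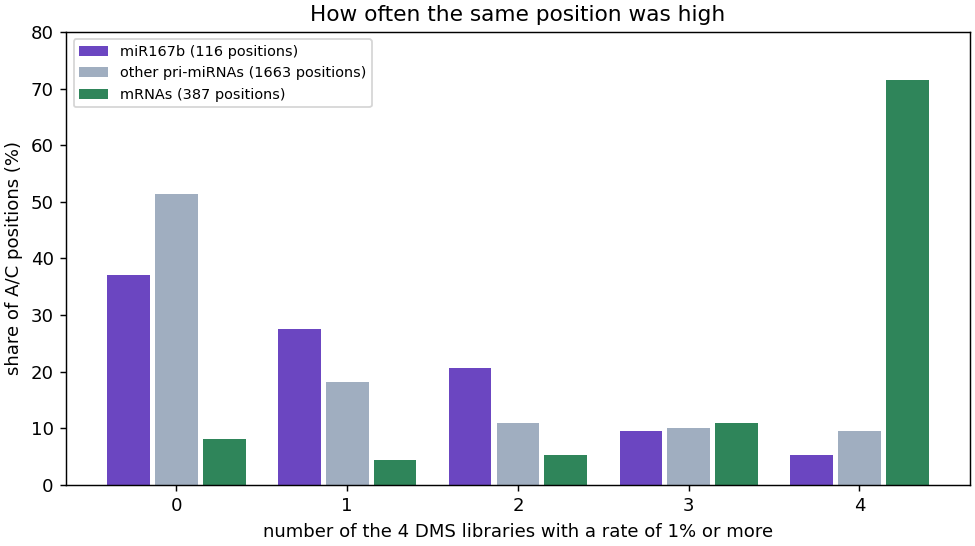
Share of A and C positions in percent (vertical axis) that had a mismatch rate of 1% or more in 0, 1, 2, 3 or 4 of the DMS libraries (horizontal axis), for miR167b, the other pri-miRNAs and the mRNAs. For miR167b the bars fall from 43 of 116 positions in 0 libraries to 6 of 116 in all 4, whereas 277 of 387 mRNA positions were high in all 4.

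Libraries of different genotypes shared 7, 12, 17 and 26 of their positions at 1% or more, and replicates of a genotype 21 and 10. The Col libraries shared 21 positions, 55.3% of those in replicate 1 and 45.7% of those in replicate 2. The second replicates of Col and chr2 shared 26, which were 56.5% and 70.3% of their positions. The chr2 libraries shared 10, which were 62.5% of replicate 1 and 27.0% of replicate 2.

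Within miR167b, library chr2 DMS replicate 1 stood apart in the number and height of its positions. It had 16 A/C positions at 1% or more, with a median of 11.7% and 13 of them above 10%. The other libraries had 38, 46 and 37 such positions, with medians of 3.50%, 3.97% and 3.85%. The low count was not seen over the library as a whole. In the other pri-miRNAs together it had 486 A/C positions at 1% or more, against 489, 379 and 444 in the other DMS libraries. In the mRNAs it had 321, against 333, 316 and 321. Below 1% the libraries were alike, with medians of 0.0341% to 0.0387% over the remaining A/C positions. Rates between 0.1% and 1% were rare, at 8.41% ± 2.27 (SD, n = 4) of the A/C positions, below the 14.8% of the other pri-miRNAs and the 15.2% of the mRNAs in 4 of 4 libraries (exact sign-flip p = 0.125 for each). The share was 6.31% ± 3.76 in miR160a and 8.13% ± 3.17 in miR160c (exact sign-flip p = 0.500 and 0.750). In miR393b it was 5.71% ± 2.10, and miR167b was higher in 4 of 4 libraries (exact sign-flip p = 0.125). Values at 1% or more made up 83.4% in the mRNAs, 29.5% in miR167b and 27.0% in the other pri-miRNAs. Few mRNA values were thus left below 1%, which limits the comparison of these shares with the mRNAs.

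**Figure D4:**
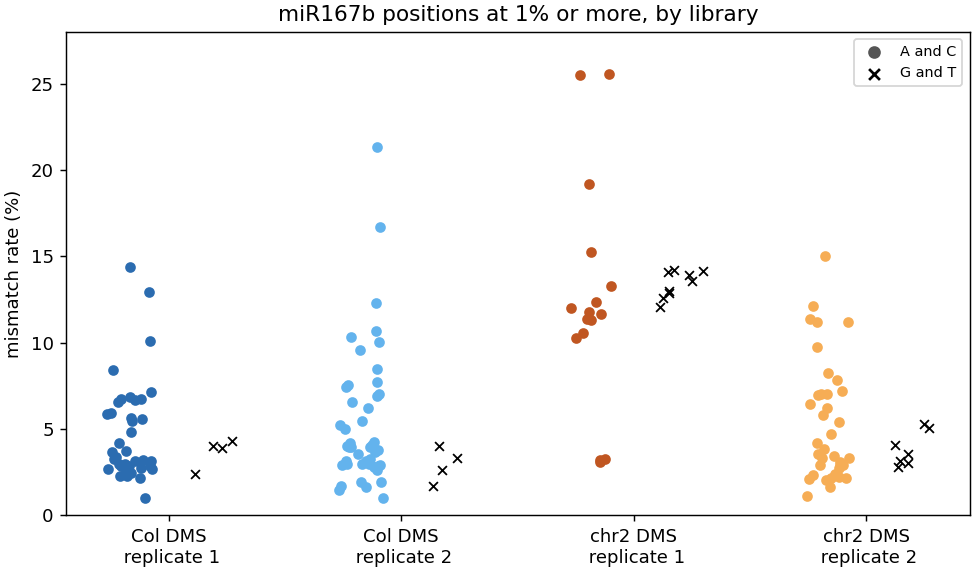
Mismatch rate in percent (vertical axis) of every miR167b position at 1% or more in each DMS library (horizontal axis), with filled points for A and C and crosses for G and T, spread sideways for legibility. In chr2 DMS replicate 1 the A/C points have a median of 11.7% and the G/T crosses lie between 12.1% and 14.2%, above the G/T crosses of the other libraries.

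At a modified base the reverse transcriptase can insert any of the 3 other bases, so the mix of substitutions was examined as a readout that the rates did not use. At positions of 1% or more, the commonest substituted base made up a median of 99.0%, 99.3%, 99.9% and 99.3% of the mismatches in Col DMS replicates 1 and 2 and chr2 DMS replicates 1 and 2. In the mRNAs it made up 63.1%, 67.0%, 63.8% and 67.9%, lower in 4 of 4 libraries (exact sign-flip p = 0.125), and in the other pri-miRNAs 98.3% ± 0.117 (n = 4). Summed over positions, T made up 68.7% ± 8.94 of the mismatches at A in miR167b and 66.3% ± 1.72 in the mRNAs. At C the mixes were further apart, with T at 59.9% ± 7.52 in miR167b and 50.1% ± 0.758 in the mRNAs, and A at 18.0% ± 8.24 and 32.7% ± 1.37. The share of A at C was lower in miR167b in 4 of 4 libraries. A106 shows how the base could differ between libraries, since 99.5% of its mismatches were G in Col DMS replicate 1, 98.9% T in Col DMS replicate 2, 99.6% G in chr2 DMS replicate 1 and 99.6% C in chr2 DMS replicate 2. At C224 T made up 93.9%, 99.9%, 99.9% and 99.9%.

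Single positions were tested against mock with edgeR's quasi-likelihood test on mismatch counts over the A/C positions of all amplicons, with p-values adjusted by Benjamini-Hochberg over 2597 positions. In miR167b 141 of the 146 A/C positions passed the filter of at least 10 mismatches over the libraries. The primer ends were kept in these tests, unlike in the rates, which use 116 A/C positions. With each genotype tested against its own mock library, no position of any amplicon passed an adjusted p of 0.05 (0% called). In Col 18 and in chr2 16 of the miR167b positions had an unadjusted p under 0.05, which is 12.8% and 11.3%, against 25.6% and 26.7% over all amplicons. Of these, 14 lay above and 4 below mock in Col, and 8 above and 8 below mock in chr2. The smallest adjusted p-values in miR167b were 0.0693 and 0.0669. DESeq2 called 51 and 39 miR167b positions in these comparisons (38.4% and 39.5% over all amplicons), limma 10 and 4 (19.6% and 20.5%), and edgeR with its newer quasi-dispersion 13 and 9 (20.7% and 22.3%). These counts include positions below mock, which numbered 0, 1 and 2 in Col and 2, 0 and 4 in chr2, in the same order of tools.

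The 4 DMS libraries were also set against both mocks in a fit that left the genotype out, so that the mocks served as replicates of each other. In this fit 7 of the 141 positions (4.96%) passed, against 24.9% of all A/C positions tested. Of these 6 rose, against 23.5% over all amplicons, and 1 fell, against 1.35%. The 6 that rose are the 6 positions at 1% or more in all 4 libraries, which are A66, A85 and A106 in the 5' flank, C224 in the lower stem, and A241 and A261 in the 3' flank. None lies in the duplex or on the loop side. Among G/T positions 0 of 145 passed (0% over all amplicons), with 8 (5.52%) at an unadjusted p under 0.05, against 11.0% over all amplicons. DESeq2 called 4 of them, against 5.85% over all amplicons.

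A106 was the most even of them, at 3.22%, 2.95%, 3.26% and 4.17% in Col DMS replicates 1 and 2 and chr2 DMS replicates 1 and 2, against 0.0509% and 0.0343% in the mocks. Its log2 change was 6.31 (edgeR adjusted p = 0.00132). A85 was at 6.76%, 7.01%, 3.17% and 12.2% in the same order, with a log2 change of 7.60 (edgeR adjusted p = 0.00255), so the Col values lay between those of chr2. C224, whose rates are given above, had a log2 change of 8.01 (edgeR adjusted p = 0.00181).

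A66 was at 1.00%, 4.00%, 15.2% and 3.85%, with the highest value in chr2 DMS replicate 1 (log2 change 8.15, edgeR adjusted p = 0.0146). In the 3' flank A241 was at 5.60%, 3.06%, 11.4% and 2.22% (log2 change 7.53, edgeR adjusted p = 0.00502). A261 was at 13.0%, 7.70%, 25.5% and 3.31% (log2 change 7.24, edgeR adjusted p = 0.0121). At both, the chr2 libraries were the highest and the lowest of the 4. C207 of the miRNA* was the position that fell (log2 change -1.77, edgeR adjusted p = 0.00430). DESeq2 called 49 positions in this comparison (43.4% over all amplicons) and edgeR with its newer quasi-dispersion 17 (32.8%). Of these, 4 and 3 were below mock. Without chr2 DMS replicate 1 the default edgeR test called 16 (11.3%), against 26.1% over all amplicons, and 1 of the 16 was below mock.

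Between chr2 and Col no position was called by edgeR in the 4 DMS libraries, in miR167b or in any other amplicon (0% of 2594). Of the 141 miR167b positions 7 (4.96%) had an unadjusted p under 0.05, against 4.24% over all amplicons, and 6 of the 7 were lower in chr2. The tools disagreed on this comparison. DESeq2 called 33 positions, against 11.7% over all amplicons, of which 8 were higher and 25 lower in chr2 (5.98% and 5.74% over all amplicons). It also called 20 of 145 G/T positions, against 8.22% over all amplicons. limma called 0 (0% over all amplicons), with 8 (5.67%) at an unadjusted p under 0.05, against 4.16% over all amplicons. edgeR with its newer quasi-dispersion called 5, all lower in chr2, against 0.925% over all amplicons in either direction and 0.463% lower in chr2.

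Those 5 were A50, C83, C93 and A96 in the 5' flank and A235 in the 3' flank. A50 was at 2.88% and 2.79% in Col and at 0.0187% and 0.0182% in chr2, whose values were those of the mocks, 0.0225% and 0.0193% (log2 difference -7.30, unadjusted p = 0.00100, adjusted p = 0.262 by edgeR). C93 was at 5.62% and 9.58% in Col and 0.0321% and 0.0237% in chr2 (log2 difference -8.14, edgeR adjusted p = 0.262). At each of the 5 both Col libraries were above 2% and both chr2 libraries under 0.05%.

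A96 was at 6.72% and 10.3% in Col and 0.0490% and 0.0452% in chr2 (log2 difference -7.55). C83 was at 5.86% and 2.89% in Col and 0.0324% and 0.0246% in chr2 (log2 difference -7.29). A235 was at 5.90% and 2.90% in Col and 0.0241% and 0.0258% in chr2 (log2 difference -7.49). These 3 had the same edgeR adjusted p of 0.262. C40 and A176 were also high in Col alone, C40 at 10.1% and 2.96% against 0.0731% and 0.0610% (log2 difference -6.63, edgeR adjusted p = 0.346).

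In all, 7 of the 116 A/C positions (6.03%) were at 1% or more in both Col libraries and neither of chr2, against 1.57% over all amplicons, where 34 of 2166 did so. The reverse held at 1 position (0.862%, against 1.85% over all amplicons), C60 in the 5' flank. It was at 0.103% and 0.171% in Col and 12.0% and 7.21% in chr2, with mocks of 0.0967% and 0.110% (log2 difference 6.08, unadjusted p = 0.00356, adjusted p = 0.266 by edgeR). The other 4 positions with the smallest p among those higher in chr2 were A163, C193, A249 and C260, and each was high in 1 chr2 library only, at 2.04% to 12.3%. A chr2 library with 16 high positions limits how many could be shared by both chr2 libraries, and its part in these counts was not tested.

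**Figure D5:**
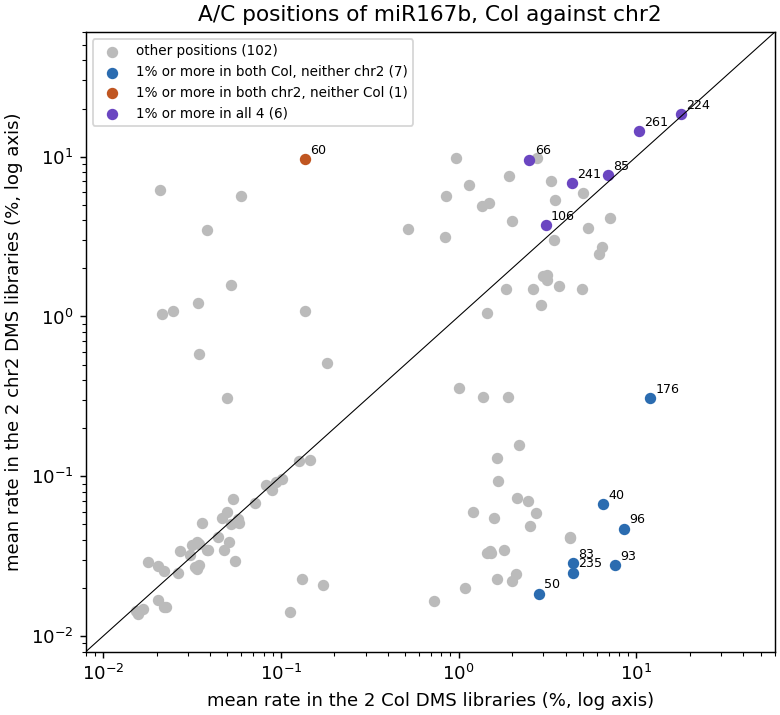
Mean mismatch rate in the 2 chr2 DMS libraries (vertical log axis, percent) against that in the 2 Col DMS libraries (horizontal log axis, percent) for each of 116 A and C positions of miR167b, with the line of equal rates. The 6 positions high in all 4 libraries lie near or above the line at the upper right, 7 lie far below it with high rates in both Col libraries, and C60 is the 1 far above it with high rates in both chr2 libraries.

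The rates of the chr2 and Col libraries did not overlap at 34 of 116 positions (29.3%), against 33.0% over all amplicons. At 12 of them chr2 was higher (10.3%, against 19.3%) and at 22 lower (19.0%, against 13.6%). For the parts of the precursor, every exact permutation p between the genotypes was 0.333 or above, and 2 against 2 libraries can give no smaller one, so this test could not separate the genotypes whatever the values. Libraries were apart by genotype in the miRNA*, lower in chr2, and in the 3' flank, at 2.59% ± 0.310 in Col and 2.95% ± 0.0204 in chr2 (n = 2 each). The 3' flank difference of 0.367 percentage points became -0.186 with rates capped at 10%.

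The response over mock was also compared between the genotypes, with all 6 libraries in 1 fit. No position of any amplicon was called by edgeR (0% of 2597), and 12 miR167b positions (8.51%) had an unadjusted p under 0.05, against 3.85% over all amplicons, with a smallest adjusted p of 0.857. DESeq2 called 8 positions of miR167b here, against 2.27% over all amplicons, with 1 higher and 7 lower in chr2 (1.19% and 1.08%).

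Next to the other precursors on auxin signalling, miR167b had a lower mean rate than miR160a, whose mean was 2.12% ± 0.281, in 4 of 4 DMS libraries and a higher one than miR160c, at 0.510% ± 0.247, in 4 of 4 (exact sign-flip p = 0.125 for each). The mean of miR393b was 2.34% ± 0.620, and miR167b was lower in 3 of 4 libraries (exact sign-flip p = 0.250). The mRNAs, at 2.57% ± 0.184, were above miR167b in 4 of 4 libraries (exact sign-flip p = 0.125).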

How the data were processed

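DMS mutational profiling was done in 6 libraries, 2 with DMS and 1 mock for each genotype. The authors deposited counts, which per the file headers are calls of A, C, G and T at each position beside the reference base. Per the labels' protocols, nuclear RNA was reverse transcribed with TGIRT-III and amplified with gene-specific primers, and the products were fragmented. SAMtools 1.5, Picard, BWA and cutadapt appear in the submitters' processing notes. Neither their settings nor a genome build is given in the sources used here. Genome coordinates are therefore left out.

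From the counts, coverage counts every call at a position, whatever the base, and a mismatch is a call that differs from the reference. Tested positions, primer ends included, had at least 100 calls in every library, no mock rate over 5% and at least 10 mismatches in all. Tests used edgeR 4.0.16 (quasi-likelihood, package defaults, R 4.3.3) with log coverage as offset. A size factor per library (median ratio of rates) was added between chr2 and Col, where it was 0.962 to 1.01. It was also added for the difference of responses, there taken over DMS and mock libraries together. The tests were fitted over all amplicons and adjusted by Benjamini-Hochberg with a threshold of 0.05. Alternatives were DESeq2 1.42.0, limma 3.58.1 on log2(rate + 0.0001), other filters, size factors and folds, the replicate number as a block, and each DMS library left out in turn. edgeR with its newer quasi-dispersion, and the leave-one-out counts of high positions, were chosen after seeing the data. The default edgeR fit was tested on simulated counts, for both genotypes against mock and for chr2 against Col alone. The spread between simulated replicates was set in advance and not estimated from these libraries. The simulation therefore does not show how the fit behaves at the spread seen here, and the other tools were not simulated. Values per library were compared by exact permutation or sign flips (Python 3.11.15, SciPy 1.17.1).

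Folds came from RNAfold 2.7.2 at 37 °C. The miRNA was placed by the known seed of the family, which occurs once in the amplicon, and a length of 21 nt, and the miRNA* by its pairing partners. The lower stem runs outwards from the duplex to the first interruption of 5 or more unpaired nt on a strand. Printed sequences are the reference bases of the deposited files. Positions were named where they passed a test, were among the 10 highest per genotype, had the 5 smallest p-values in a direction between chr2 and Col, were at 1% or more in the duplex or in all 4 DMS libraries, or were among the 3 highest G/T positions. Other positions named here, such as C223, A109 and A165, were picked after their values were seen. The member, the lists and the tests were chosen with earlier results of these data known.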

Additional observations from a re-analysis of the deposited data

Results flagged for a closer look

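The mean G/T mismatch rate of miR167b, a readout outside the A/C measurement, was above the higher of the mock values, 0.0561%, in all 4 DMS libraries. It was 0.171% in Col DMS replicate 1, 0.151% in Col DMS replicate 2, 1.03% in chr2 DMS replicate 1 and 0.282% in chr2 DMS replicate 2. At 23 of 123 G/T positions (18.7%) the rate was 1% or more in at least 1 DMS library, against 7.62% in the other pri-miRNAs and 1.62% in the mRNAs. Of those 23 positions 22 were high in 1 library and 1 in 2.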

How the results depend on the processing

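Of 337 alternative values of the main results, 301 were the same, 23 changed sign and 13 moved. For rates and AUC the same means an unchanged sign of the difference, whatever its p-value. For counts of positions it means a count equal or close to the main one, and a count further off is said to have moved. Of 217 alternative values for single positions 202 were the same, 15 newly passed the threshold and 0 changed sign. The count of called positions depended on the tool, and the cause was not tested. For DMS against mock it takes positions above and below mock together. In Col the count went from 0 to 51 by DESeq2, 10 by limma and 13 by edgeR with its newer quasi-dispersion. In chr2 it went from 0 to 39, 4 and 9. Of these, 0, 1 and 2 in Col and 2, 0 and 4 in chr2 were below mock. For both genotypes the count went from 7 to 49 by DESeq2 and 17 by the newer edgeR, of which 4 and 3 were below mock. It was 7 to 16 when 1 DMS library was left out. For chr2 against Col it went from 0 to 33 by DESeq2 and 5 by the newer edgeR, and for the difference of responses from 0 to 8 by DESeq2. The signs of the chr2 minus Col differences were unstable. With 1 library left out (percentage points), the mean A/C rate lay between -0.406 and 0.154, the 5' flank between -0.787 and 0.284, the lower stem between -0.790 and 0.391, the miRNA between -0.0132 and 0.244, the paired upper stem between -0.261 and 0.641, the unpaired loop side between -2.17 and 0.192 and all unpaired positions between -1.06 and 0.0809. With the fold made without primer ends, the 5' flank was at 0.0244, unpaired positions at 0.0670, paired positions at -0.257 and the AUC at 0.00493. A lower stem of 15 nt on each strand also gave 0.0244 for the 5' flank. The fold at 22 °C gave -0.0982 for paired positions and 0.00370 for the AUC, and the centroid gave -0.166 for paired positions and -0.470 for the paired upper stem. Medians over positions gave 0.00581 for the miRNA* (-0.0114 for DMS minus mock), -0.0120 for the paired upper stem, -0.835 for the 3' flank and -0.00738 for paired positions, and a cap of 10% gave -0.186 for the 3' flank and -0.0387 for paired positions. Positions high in all DMS libraries numbered 6 to 14 with 1 library left out. With the replicate number as a block 0 positions were called between chr2 and Col (9, or 6.38%, at an unadjusted p under 0.05, against 3.35% over all amplicons, smallest adjusted p 0.957). Same-numbered libraries deviated together with a correlation of 0.0570 over 116 miR167b positions and 0.0315 over 2166 positions of all amplicons, so the numbers were not taken as pairs. With 2 DMS libraries and 1 mock per genotype, the number of libraries limits these comparisons. AUC has no version with a median over positions, so that alternative was not run.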
